A study of Mus musculus with 15 samples.

Results

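The libraries described here hold RNA from the cortical cells that passed both CD45 and CD31 magnetic beads, taken from mice with and without an endothelial deletion of EphA4. They were chosen by fraction and genotype: 7 of the 15 libraries of the study, 4 wild type (WT) and 3 knockout (KO). WT mice were EphA4f/f, with both copies of EphA4 floxed, and KO mice were EphA4f/f animals that also carried VeCadCreERT2, a tamoxifen-inducible Cre recombinase under the VE-cadherin promoter, which is active in endothelial cells. All mice received a moderate controlled cortical impact (CCI), a piston injury to the exposed brain, over the right parietal cortex, and the cortex on the injured side was dissociated after 1 day. CCI is the treatment of every library, so the data hold no uninjured cortex, and the labels name neither a tamoxifen schedule, an age, nor animals. The labels do not say whether the WT mice received tamoxifen or whether a library is 1 animal. Most endothelial cells should stay on the CD31 beads, so the deletion itself is carried by cells that this fraction largely lacks. The series title ties the study to Tie2 and Akap12 signalling and to the blood-brain barrier, and the comparison of genotypes in this fraction shows what differed in the remaining cells of the injured cortex.

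EphA4 is a receptor tyrosine kinase that binds ephrins on neighbouring cells and passes signals that steer axons, shape dendritic spines and regulate contacts between vessels, glia and neurons. In injured cortex, neurons lose synapses and change their firing, astrocytes become reactive, and immature neurons from the germinal zone of the forebrain can be present. The flow-through holds RNA of neurons, astrocytes, oligodendrocytes and their precursors, so a change in any of these populations can be read in it. In bulk RNA, fewer cells of a type and less RNA per cell cannot be told apart, and this holds for every value below.

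The promoters of 4 genes that rose in the KO libraries are shown because the higher genes as a set had GC-rich transcripts and promoters, as described at the end. They are Egr4, an activity-induced transcription factor, and the 3 genes with the smallest p-values among the named genes that have an entry in the promoter table: Rims1 and Ppfia3 (liprin-alpha-3), both proteins of the presynaptic active zone, and Rph3a (rabphilin), a Rab3 effector on synaptic vesicles. Each runs 5′ to 3′ on the gene's own strand, from 250 bases before to 50 bases after the start in RefSeq, build GRCm38.p6. They lie at chr6:85513540-85513839, chr1:22806109-22806408, chr7:45366970-45367269 and chr5:121010043-121010342, in the order printed, all on the minus strand. Capitals mark GC boxes (GGGCGG) and the core of the cAMP response element (TGACG), on either strand, so that they also appear as CCGCCC and CGTCA.
Egr4: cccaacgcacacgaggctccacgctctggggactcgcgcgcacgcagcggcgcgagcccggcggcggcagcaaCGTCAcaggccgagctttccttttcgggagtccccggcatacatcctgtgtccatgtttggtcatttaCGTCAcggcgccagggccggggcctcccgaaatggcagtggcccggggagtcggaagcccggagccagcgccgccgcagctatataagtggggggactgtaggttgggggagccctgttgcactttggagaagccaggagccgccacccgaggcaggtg
Rims1: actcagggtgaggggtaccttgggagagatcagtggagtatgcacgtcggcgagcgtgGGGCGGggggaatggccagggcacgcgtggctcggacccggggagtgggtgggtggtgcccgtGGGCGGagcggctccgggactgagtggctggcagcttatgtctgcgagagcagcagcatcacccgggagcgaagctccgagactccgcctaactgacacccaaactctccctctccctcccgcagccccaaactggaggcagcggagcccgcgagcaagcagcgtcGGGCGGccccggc
Ppfia3: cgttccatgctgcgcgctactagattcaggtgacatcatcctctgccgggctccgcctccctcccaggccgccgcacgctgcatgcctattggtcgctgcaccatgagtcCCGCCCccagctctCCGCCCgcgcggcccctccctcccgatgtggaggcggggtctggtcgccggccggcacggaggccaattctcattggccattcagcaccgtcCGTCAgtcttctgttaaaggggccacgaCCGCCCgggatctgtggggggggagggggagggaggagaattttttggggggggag
Rph3a: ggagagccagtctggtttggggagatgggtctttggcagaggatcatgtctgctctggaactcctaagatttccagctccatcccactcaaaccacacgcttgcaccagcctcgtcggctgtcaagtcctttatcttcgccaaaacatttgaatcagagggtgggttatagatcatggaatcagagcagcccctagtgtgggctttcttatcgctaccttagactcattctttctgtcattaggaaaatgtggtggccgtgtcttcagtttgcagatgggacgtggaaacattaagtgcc

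GC content was 67.7% in the Egr4 window, 69.3% for Rims1, 67.3% for Ppfia3 and 49.3% for Rph3a. Rims1 and Ppfia3 had 3 GC boxes each, Egr4 and Rph3a had 0, and the TGACG core stood in the Egr4 and Ppfia3 windows. The RefSeq start of Rims1 lies 165 bases from the GENCODE start used for the gene counts, and those of the other genes within 1 base.

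Total counts were 19204814 to 27270907 per library. Mitochondrially encoded genes took 2.58 to 4.47% of counts, and the lowest share was that of KO replicate 3. That library also had the highest mean GC content weighted by counts, 49.98% against 49.1 to 49.5% in the other 6. The first principal component held 25.5% of the variance and placed all WT libraries between -23.4 and -8.2 and all KO libraries between 14.7 and 29.8, while WT replicate 1 stood apart on the second (30.3, with 19.5% of the variance). Levels below are library-size-normalised counts (CPM) scaled by the trimmed mean of M values (TMM), in the order of WT replicates 1 to 4 and KO replicates 1 to 3. Another WT library carries the flow-through label but sits among the CD45 columns. It was left out, since it held Ptprc, which encodes CD45, at 906 CPM before TMM scaling against 0.66 to 1.22 CPM in the 7 libraries used, and Mbp (myelin basic protein) at 311 CPM against 9600 to 21900.

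The label of the fraction was checked against marker lists. Myelin genes gave the most counts of the cell type lists, with a summed level of 30500 to 42500 CPM over 16 oligodendrocyte genes in WT and 39200 to 46600 CPM in KO libraries. The 18 homeostatic astrocyte genes summed to 9020 to 11700 CPM in WT and 10100 to 12400 CPM in KO libraries. Immune markers were mostly low. Enough counts to be tested were found for 6 of 16 monocyte and macrophage genes, 7 of 14 neutrophil genes, 10 of 14 homeostatic microglia genes and 2 of 12 lymphocyte genes. Cd14, of monocytes, lay at 16.4 to 36.8 CPM, and Lcn2, which is in the neutrophil list and which reactive astrocytes also express, at 288 to 543 CPM of the 301 to 556 CPM that the neutrophil list summed to. Ly6c2, Ly6g and Ms4a1 were at 0 in all 7 libraries. The endothelial marker Pecam1, which encodes CD31, lay at 1.83 to 6.37 CPM, and Cldn5 (claudin-5), of brain endothelial tight junctions, at 3.94 to 6.32 CPM.

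**Figure D1:**
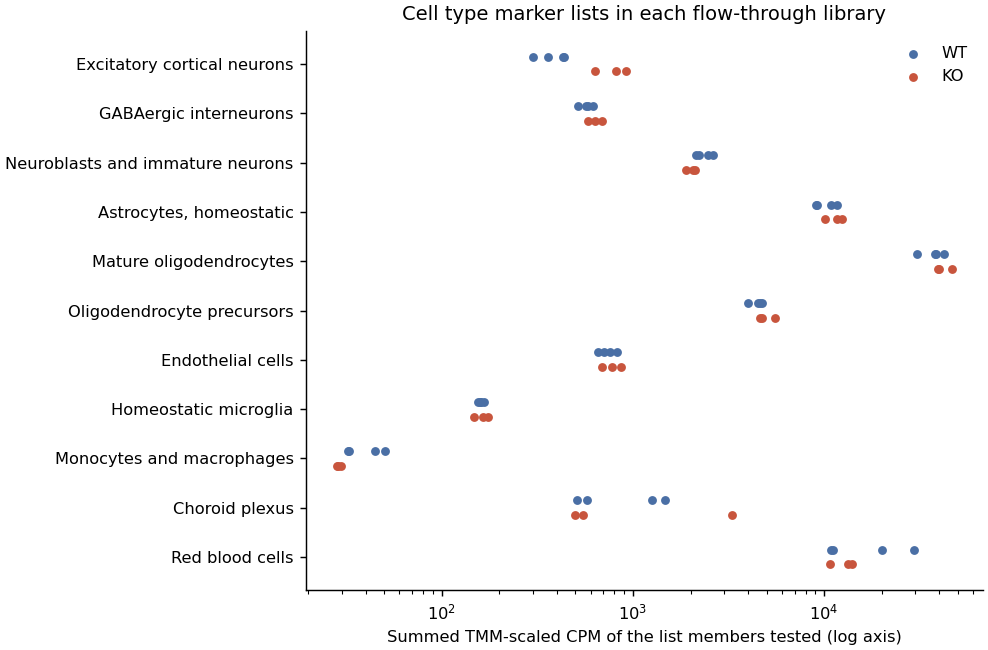
Summed TMM-scaled CPM (log axis) of the tested members of 11 cell type lists, with each point 1 library and colours giving genotype. Excitatory neuron genes sit at 301 to 436 CPM in WT and 631 to 918 CPM in KO libraries. Camk2a alone gives 66.3 to 130 CPM of that sum in WT and 194 to 405 CPM in KO libraries. Endothelial, homeostatic astrocyte and mature oligodendrocyte genes overlap between genotypes, and choroid plexus genes are highest in KO replicate 1 at 3300 CPM.

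Epha4 itself was measured first. Its level was 43.0, 42.0, 42.9 and 36.9 CPM in WT and 38.98, 36.7 and 42.2 CPM in KO libraries. The groups overlapped (log2 fold change KO minus WT -0.07, SE 0.09, edgeR adjusted p = 0.849). Endothelial markers were this low in the fraction, so these counts do not check the deletion. The edgeR quasi-likelihood test found 235 genes higher and 25 lower in KO libraries among 16546 tested, at an adjusted p under 0.05. That is 1.57% of genes in all, 1.42% higher and 0.151% lower. Of the genes tested, 48.3% had a log2 fold change above 0, and the median was -0.01. KO libraries lay all above WT libraries for 6.62% of genes and all below for 4.9%, together 11.5%. The median log2 fold change was 0.82 among the higher genes (0.35 to 5.01) and -0.64 among the lower genes (-3.79 to -0.38).

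The number of genes depended on single libraries. Without WT replicate 2 the test called 144 genes, without WT replicate 3 it called 159, without KO replicate 1 it called 134 and without KO replicate 2 it called 163. With each library's trend on GC content and exon length removed, 148 were higher and 39 lower. With the library of the CD45 table entered as labelled, 0 genes passed, and in a fit that also held the 7 CD45 libraries 30 did. A named gene that passed in fewer than all of the other 16 alternative settings is given with the number in which it passed.

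**Figure D2:**
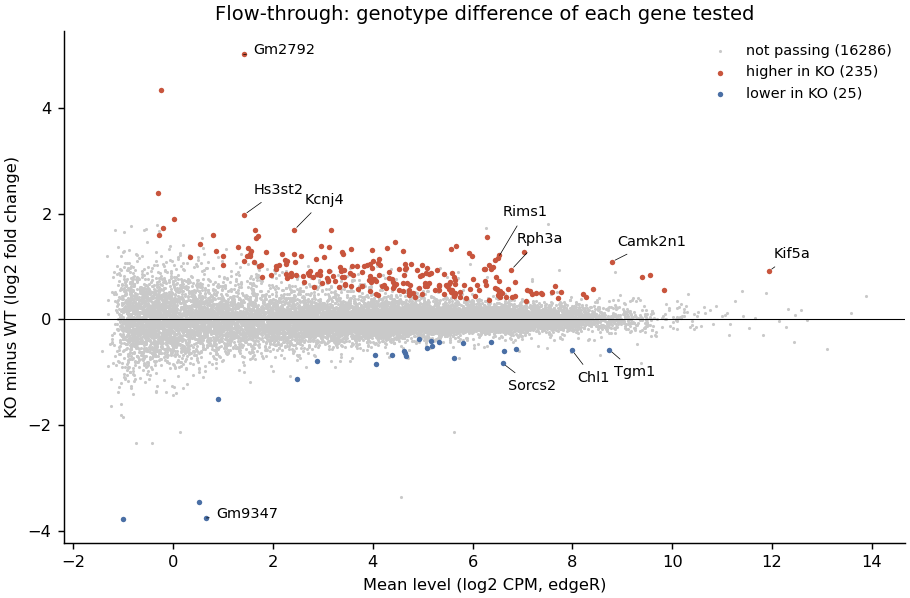
Log2 fold change (KO minus WT) against mean level (log2 CPM) for the 16546 genes tested, with colours for the 235 higher and 25 lower genes. The higher genes span the whole range of levels up to Kif5a, and the largest fold changes in both directions belong to predicted genes of low level such as Gm2792 and Gm9347.

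Genes of transmitter release formed the list with the most members passing. Of 38 members tested, 19 were higher and 0 lower, with a median log2 fold change of 0.58 against -0.01 over all genes. In 27 of the 38 every KO library lay above every WT library, beside 6.62% of all genes. The share called higher, for this list and those that follow, stands beside 1.42% of all genes. Rims1, a scaffold that links vesicles to calcium channels at the active zone, lay at 61.0, 59.1, 58.8 and 59.0 CPM in WT and 153, 138 and 106 CPM in KO libraries. All 3 KO values were above the tight WT cluster, and KO replicate 3 was the lowest of them (log2 fold change 1.15 with SE 0.11, edgeR adjusted p = 0.000371). All 4 genes of its family passed, Rims2 at 0.51 (14 of 16 settings), Rims3 at 0.77 and Rims4 at 1.69 on the log2 scale. Rims4 rose from 3.50 to 6.09 CPM in WT to 17.9, 16.0 and 10.5 CPM in KO libraries, with no overlap. Rph3a stood at 79.7, 81.7, 78.3 and 74.4 CPM in WT and 160, 145 and 146 CPM in KO libraries. Its adjusted p-value and that of Ppfia3 were the smallest of the named genes (log2 fold change 0.94 with SE 0.08, edgeR adjusted p = 0.000283).

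Some genes of membrane fusion passed and others did not. Stx1a, the plasma membrane syntaxin of the SNARE complex, was at 11.7, 10.8, 11.1 and 12.3 CPM in WT and 21.0, 18.7 and 21.0 CPM in KO libraries (log2 fold change 0.82 with SE 0.11, edgeR adjusted p = 0.00156). The complexins, which clamp and release SNARE complexes, passed in all 3 cases, with Cplx1 at 0.87, Cplx2 at 0.57 (11 of 16 settings) and Cplx3 at 1.37 (15 of 16). Among 16 synaptotagmins, a family that includes the calcium sensors of release but also other members, 2 passed. Syt7, the sensor of asynchronous release, was at 12.6, 10.8, 10.98 and 12.1 CPM in WT and 26.9, 25.5 and 20.6 CPM in KO libraries, without overlap, and Syt13 had a log2 fold change of 0.85. Syt1, the fast sensor, had a log2 fold change of 0.78 that did not pass (edgeR adjusted p = 0.223), with WT libraries from 29.7 to 53.4 CPM and KO libraries from 54.3 to 77.0 CPM. The vesicle-coating synapsin Syn1 (0.58, 11 of 16 settings) and Syn2 (0.68, 9 of 16) were higher and Syn3 did not pass (0.22). Without WT replicate 2 the list had 11 members higher, and with the GC and length trend removed 13. Members of these families that the rule for named genes did not select were chosen after their values were seen.

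**Figure D3:**
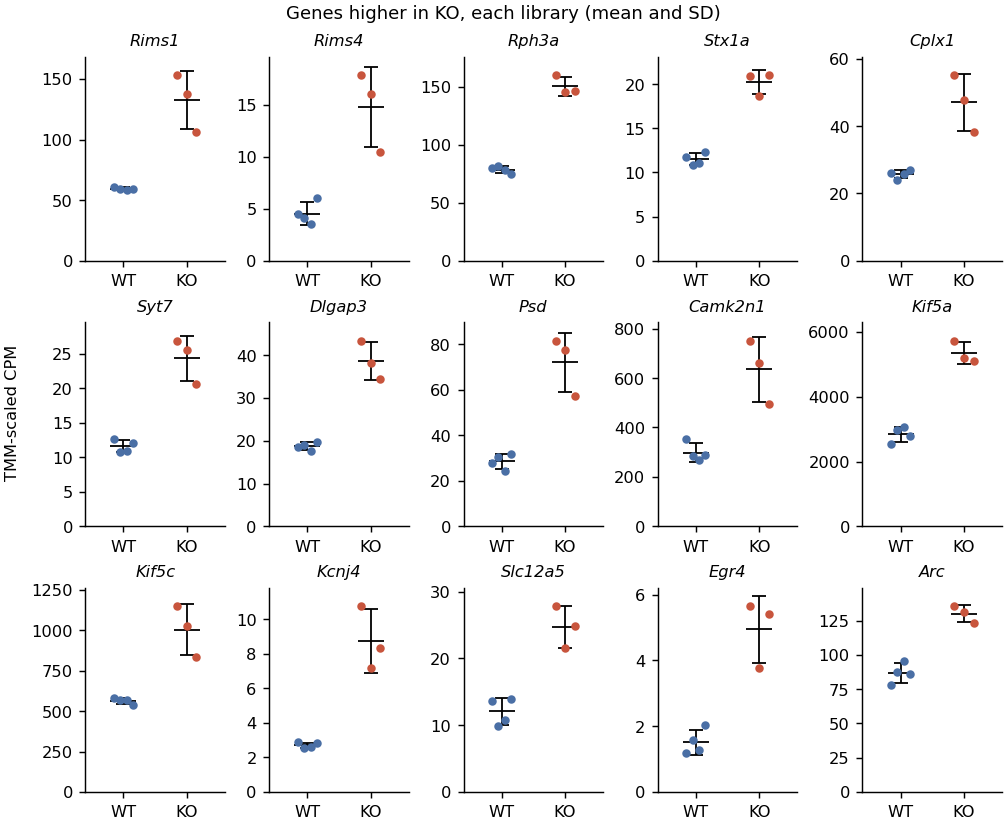
TMM-scaled CPM of 15 genes higher in KO libraries, with each point 1 library and bars giving the mean and SD (n = 4 WT, n = 3 KO) on axes that start at 0. No KO library overlaps a WT library, and for Rims1, Psd, Camk2n1 and Kif5c KO replicate 3 is the lowest KO library, whereas for Stx1a and Egr4 it is KO replicate 2.

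On the receiving side of the synapse, 13 of 36 postsynaptic scaffold and spine genes were higher and 0 lower (median 0.44). Dlgap3, which tethers Shank proteins to the PSD-95 scaffold, was at 18.7, 18.9, 17.7 and 19.8 CPM in WT and 43.4, 38.1 and 34.5 CPM in KO libraries. The KO values were all above the WT values (log2 fold change 1.04 with SE 0.10, edgeR adjusted p = 0.000371). Dlgap1 (0.57, 15 of 16 settings) and Dlgap2 (1.23) also passed. Dlgap4 (0.16) and the mitotic member Dlgap5 (-0.18) did not. Psd, an exchange factor for the GTPase Arf6 in dendrites, rose from 24.2 to 31.8 CPM in WT to 81.5, 77.4 and 57.1 CPM in KO libraries (1.33). Shank3 passed (0.88, 15 of 16 settings), while Shank1 (0.81, edgeR adjusted p = 0.0697) and Shank2 (0.42) did not.

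The kinase that dominates the postsynaptic density, CaMKII, and its inhibitors were measured through 6 genes. Camk2n1, an endogenous CaMKII inhibitor, lay at 353, 284, 266 and 290 CPM in WT and 751, 660 and 494 CPM in KO libraries (log2 fold change 1.09 with SE 0.14, edgeR adjusted p = 0.00156). Camk2n2, the other inhibitor, also rose (0.78). Camk2b passed with WT libraries at 38.2, 32.5, 24.9 and 32.6 CPM and KO libraries at 65.2, 50.9 and 57.5 CPM (0.85). Camk2a had the larger fold change but the larger spread, at 86.0, 67.2, 66.3 and 130 CPM in WT and 405, 321 and 194 CPM in KO libraries. It did not overlap between genotypes and did not pass (1.81, SE 0.34, edgeR adjusted p = 0.0832). Camk2d (0.08) and Camk2g (0.09), which many cell types express, did not pass.

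Among transmitter receptors, 3 of 26 glutamate receptor genes were higher (median 0.24), namely Grin1, the obligatory NMDA receptor subunit (0.85, 15 of 16 settings), and the AMPA receptor auxiliary genes Cacng3 (1.29, 12 of 16) and Cnih2 (0.64, 10 of 16). Grin1 stood at 23.0, 17.7, 16.1 and 16.4 CPM in WT and 36.1, 27.8 and 34.6 CPM in KO libraries, with no overlap. With the GC and length trend removed 1 of the 26 passed. Of 16 GABA and glycine receptor genes 2 were higher, Gabbr2 (0.75, 14 of 16 settings), a GABA-B receptor subunit, and Gabra3 (0.67, 8 of 16), a GABA-A receptor subunit. Of 29 synaptic adhesion genes 2 were higher, Cntnap1, a contactin-associated protein of the paranodal junction (0.98), and Clstn3 (0.64, 11 of 16 settings), and 1 was lower, Chl1, described with the lower genes.

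Ion channel genes passed in a minority of cases. Of 48 potassium channel genes 9 passed, all higher (median 0.24), and without WT replicate 2 the count was 3. Kcnj4, an inward rectifier that holds neurons near rest, was at 2.86, 2.55, 2.58 and 2.81 CPM in WT and 10.7, 7.16 and 8.31 CPM in KO libraries, without overlap. Kcnab2, a beta subunit of voltage-gated channels, was at 22.1, 21.9, 19.4 and 23.6 CPM in WT and 49.1, 47.1 and 36.8 CPM in KO libraries (1.02). Of 8 Kcnh genes only Kcnh1 (0.81, 13 of 16 settings) and Kcnh3 (0.74, 7 of 16) passed. Of 26 sodium and calcium channel genes 3 passed, among them the T-type calcium channel Cacna1i (1.12, 13 of 16 settings). Of 14 ion pump and chloride transport genes 4 passed. Slc12a5, the neuronal chloride extruder KCC2, was at 13.7, 9.94, 10.8 and 13.9 CPM in WT and 27.8, 21.6 and 24.9 CPM in KO libraries (log2 fold change 1.03 with SE 0.14, edgeR adjusted p = 0.00166). With the GC and length trend removed 1 of the 14 passed.

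The most counts among the genes that rose were those of Kif5a, a neuronal heavy chain of kinesin-1, which carries cargo along axons. It lay at 2538, 2963, 3075 and 2785 CPM in WT and 5724, 5206 and 5087 CPM in KO libraries, so every KO library was above every WT library (log2 fold change 0.91 with SE 0.11, edgeR adjusted p = 0.000962). Its gene is at chr10:127225696-127263348 (minus strand, GRCm38). Kif5c, the other neuronal heavy chain, also rose (0.83), and Kif5b, found in most cells, did not pass (0.35, edgeR adjusted p = 0.119) although its KO values of 630 to 764 CPM were all above the WT values of 522 to 585 CPM. Of 26 transport genes 6 were higher and 0 lower (median 0.20), including Kif1a (0.55, 15 of 16 settings), the motor of synaptic vesicle precursors, and Kifc2 (1.38). Without KO replicate 1 the count was 3. Among the spectrins of the axonal and dendritic membrane, Sptb (1.02) and Sptbn4 (0.90) passed and the widely expressed Sptbn1 (0.20) did not.

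Signalling genes that act downstream of calcium, cAMP and small GTPases also included members that rose. Of 25 small GTPase regulators 6 were higher (median 0.28). Rapgef4, a cAMP-activated exchange factor for Rap (EPAC2), was at 525, 485, 562 and 466 CPM in WT and 1000, 826 and 848 CPM in KO libraries (0.81), with no overlap, and Rap1gap2, which switches Rap off, rose too (0.94). Of 30 G protein and kinase genes 5 were higher (median 0.35), and without KO replicate 2 the count was 2. Adcy1, a calcium-stimulated adenylyl cyclase, was at 32.6, 35.3, 35.04 and 50.1 CPM in WT and 114, 96.5 and 64.9 CPM in KO libraries (1.26, 11 of 16 settings). Cdk5r2, an activator of the kinase Cdk5, rose from 6.44 to 7.77 CPM in WT to 21.5, 17.8 and 14.5 CPM in KO libraries (1.33).

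Immediate early genes had fold changes in both directions. Of 24 members 3 were higher, 11 had a positive and 13 a negative fold change, and the median was -0.06. Egr4, whose promoter is shown above, was at 1.19, 1.58, 1.26 and 2.03 CPM in WT and 5.65, 3.77 and 5.42 CPM in KO libraries (log2 fold change 1.69 with SE 0.24, edgeR adjusted p = 0.00253). Arc, which moves to spines and helps internalise AMPA receptors, was at 78.0, 87.4, 95.7 and 85.7 CPM in WT and 135, 131 and 123 CPM in KO libraries (0.58, SE 0.09, edgeR adjusted p = 0.00383). Egr3 passed in 10 of 16 settings (0.69). Egr1 (-0.19) and Egr2 (-0.05) did not pass, nor did Fos, at 768, 837, 792 and 879 CPM in WT and 573, 848 and 708 CPM in KO libraries (-0.21, edgeR adjusted p = 0.600). Of 21 later activity genes 3 were higher, Nrn1 (1.04), Lingo1 (0.94) and Nptx1 (0.70, 13 of 16 settings).

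**Figure D4:**
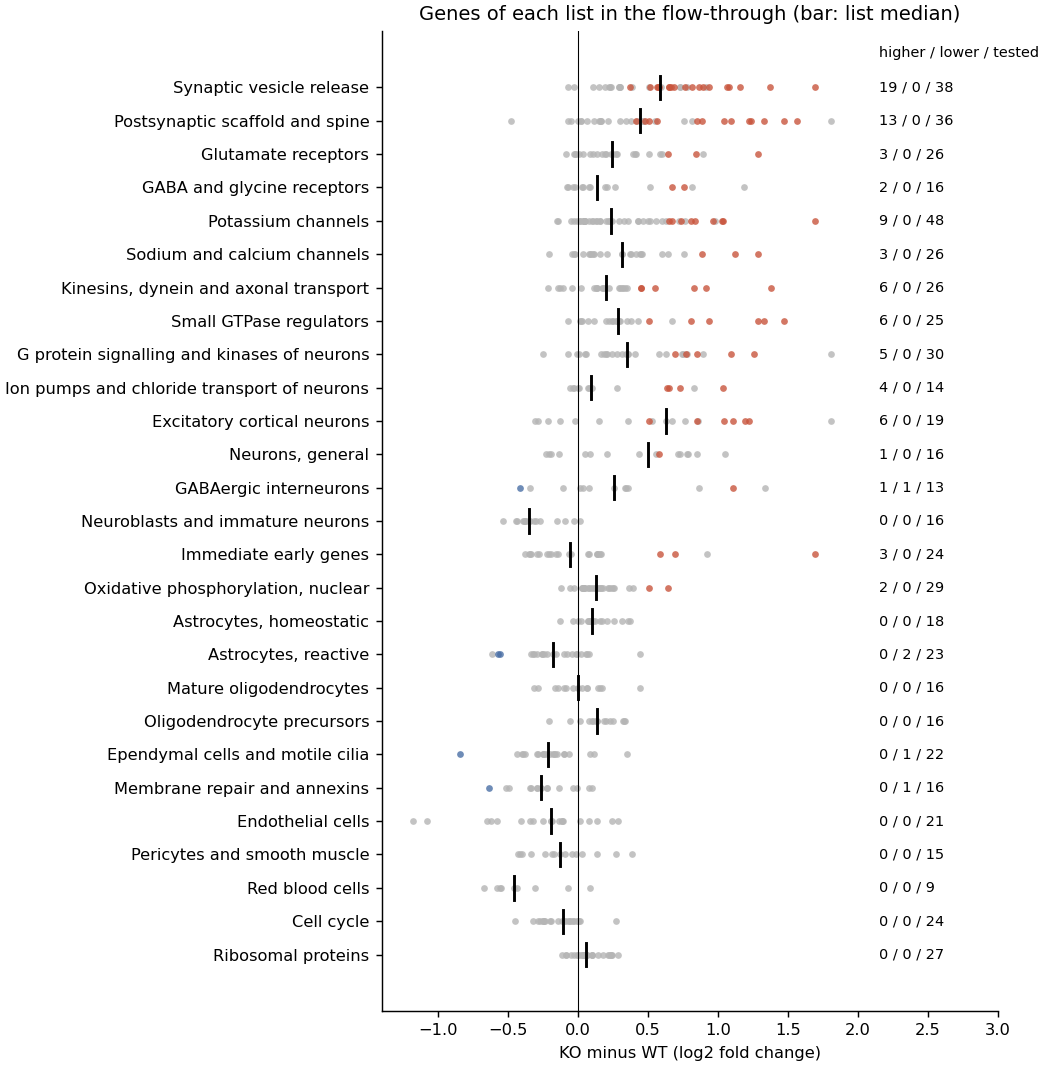
Log2 fold change (KO minus WT) of every tested gene in 27 lists, with red for genes higher, blue for genes lower, grey for genes not passing, and a black bar for the list median. The numbers on the right count members higher, lower and tested. Synaptic lists lie to the right, with medians of 0.58 and 0.44, and neuroblast genes lie to the left at -0.35.

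Markers of neuron classes were counted separately. General neuron markers had 1 of 16 higher and 0 lower, with 12 positive and 4 negative fold changes (median 0.50). Their sum overlapped between genotypes, at 1170 to 1430 CPM in WT and 1230 to 1630 CPM in KO libraries. Excitatory cortical neuron genes had 6 of 19 members higher (median 0.63), and without KO replicate 1 the count was 2. Fold changes were positive for 14 of the 19 and negative for 5. Their summed level was 301 to 436 CPM in WT and 631 to 918 CPM in KO libraries. Camk2a, which did not pass, gave 66.3 to 130 CPM of that sum in WT and 194 to 405 CPM in KO libraries. Emx1, a transcription factor of the cortical excitatory lineage, was at 1.62, 1.72, 1.85 and 1.72 CPM in WT and 4.03, 3.34 and 3.77 CPM in KO libraries (14 of 16 settings), and Cux2, of upper layers, rose by 0.50 on the log2 scale (9 of 16). Among 13 interneuron genes 1 was higher and 1 lower, with 10 positive and 3 negative fold changes (median 0.26). The peptide Cck rose (1.11, 13 of 16 settings), which excitatory neurons also express, and Gad2, an enzyme of GABA synthesis, fell by 0.42 (6 of 16). Gad2 was at 41.6, 42.4, 40.1 and 35.99 CPM in WT and 31.9, 31.2 and 27.02 CPM in KO libraries, with no overlap. Of the 15 lists of neurons and their machinery together, 75 of 353 genes tested were higher and 2 lower. That is 21.2% higher beside 1.42% of all genes. The lists were chosen with earlier results of these data known, so this share describes them and is no separate evidence. The 15 hold mature neuron markers and genes of release, postsynapse, glutamate and GABA receptors, channels, pumps, transport, cytoskeleton, adhesion and signalling. Neuroblast genes (0 of 16 higher) and neuropeptide genes (2 of 21 higher), among others, were outside the 15. Over all 58 lists 90 of 1060 genes were higher, so 145 of the 235 higher genes stood in no list.

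Genes of immature neurons did not pass the test. All 16 neuroblast genes were tested, 15 had a negative fold change, 0 passed the edgeR test, and the median was -0.35. Their sum was 2460, 2640, 2230 and 2130 CPM in WT and 2110, 2050 and 1890 CPM in KO libraries, so KO libraries lay lower by a small margin. Dcx, a microtubule protein of migrating neuroblasts chosen after its values were seen, was at 184, 250, 209 and 188 CPM in WT and 165, 164 and 101 CPM in KO libraries. The groups did not overlap, and the test did not pass (log2 fold change -0.53 with SE 0.17, edgeR adjusted p = 0.255).

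Few genes fell, and they came from several functions. Sorcs2, a sorting receptor of the VPS10 family that acts with the neurotrophin receptor p75, was at 124, 119, 128 and 107 CPM in WT and 67.4, 61.9 and 72.4 CPM in KO libraries. All KO values were below the WT values, and the call held in all 16 settings (log2 fold change -0.83 with SE 0.09, edgeR adjusted p = 0.000551). Its gene is at chr5:36017180-36398139 (minus strand, GRCm38). Its relatives Sorcs1 (0.24) and Sorcs3 (0.27) did not pass. The transcript GC content of Sorcs2 was 57.0%, beside medians of 45.5% for the genes that fell and 56.9% for those that rose.

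Chl1, a cell adhesion molecule of the L1 family in neurons and glia, was at 289, 274, 342 and 282 CPM in WT and 209, 203 and 183 CPM in KO libraries (-0.58, edgeR adjusted p = 0.00864). Fas, a death receptor, fell by 0.67 on the log2 scale (15 of 16 settings) and was the only member of 20 death receptor and p53 target genes to pass.

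**Figure D5:**
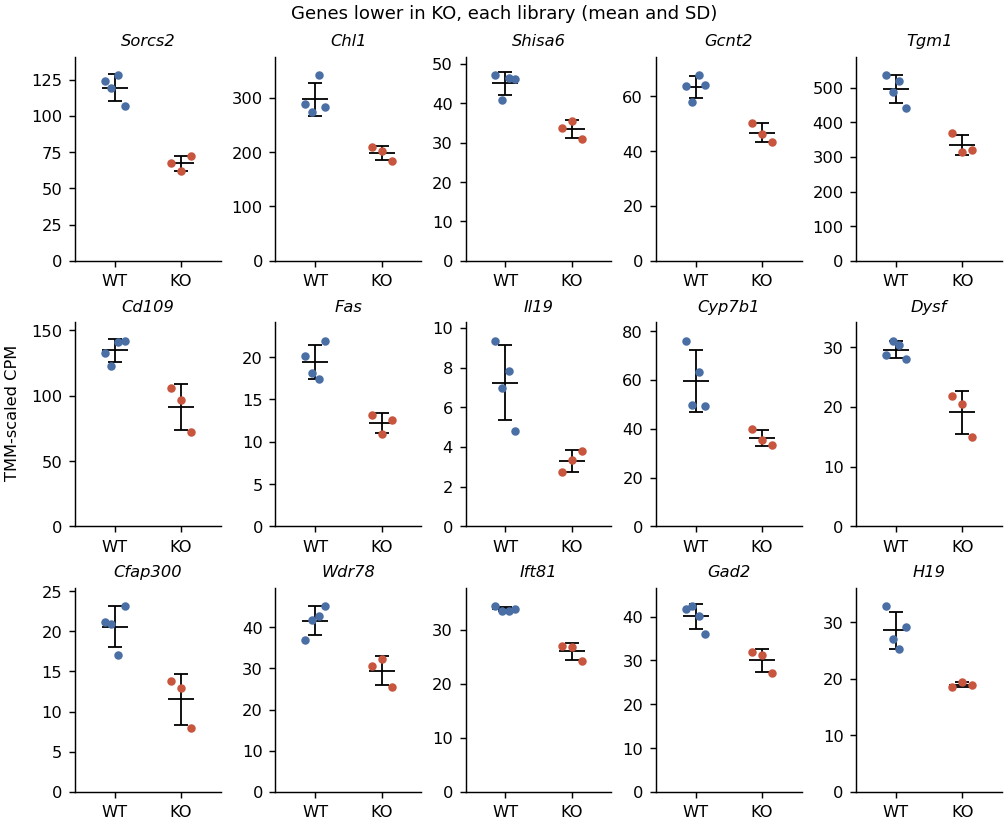
TMM-scaled CPM of 15 of the 25 genes lower in KO libraries, with each point 1 library and bars giving the mean and SD (n = 4 WT, n = 3 KO) on axes that start at 0. No KO library overlaps a WT library, and the narrowest gap relative to the level is that of Gad2.

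Among the lower genes, Cfap300 (-0.84, 12 of 16 settings), Wdr78 (-0.50, 11 of 16) and Ift81 (-0.38, 8 of 16) are known for roles in cilia or their assembly. They were grouped after their values were seen. In the list of 22 ependymal and motile cilium genes 1 was lower, Cfap300, and 19 had a negative fold change (median -0.21). Cfap300 was at 21.2, 20.9, 17.1 and 23.1 CPM in WT and 13.8, 12.9 and 7.91 CPM in KO libraries. The list's sum overlapped between genotypes, at 595 to 845 CPM in WT and 563 to 676 CPM in KO libraries.

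Genes of reactive astrocytes included 2 that fell and 0 that rose among 23 tested (median -0.18, with 18 negative). Tgm1, a transglutaminase that cross-links proteins, was at 536, 488, 518 and 442 CPM in WT and 368, 313 and 320 CPM in KO libraries (log2 fold change -0.57 with SE 0.10, edgeR adjusted p = 0.0111, 15 of 16 settings). Cd109, a surface glycoprotein that binds TGF-beta, was at 132, 123, 141 and 142 CPM in WT and 106, 96.5 and 72.0 CPM in KO libraries (-0.56, 10 of 16). The sum of the list was 9610 to 11500 CPM in WT and 8650 to 9360 CPM in KO libraries. Homeostatic astrocyte genes had 0 of 18 passing (median 0.10). Slc1a2, the main glutamate transporter of astrocytes, was at 2392, 1915, 2402 and 2008 CPM in WT and 3042, 2516 and 2815 CPM in KO libraries, without overlap and without passing (0.36, edgeR adjusted p = 0.236). Mature oligodendrocyte and precursor genes had 0 of 16 passing each, with medians of 0.00 and 0.13. Dysf, a calcium sensor of membrane repair, was the only 1 of 16 membrane repair and annexin genes to pass (-0.63, 14 of 16 settings), and 14 of the 16 were negative (median -0.26). Il19, a cytokine of the IL-10 family, was at 9.35, 6.99, 7.82 and 4.801 CPM in WT and 2.73, 3.34 and 3.81 CPM in KO libraries (-1.13, 10 of 16). Cyp7b1, an oxysterol hydroxylase, fell (-0.72, 11 of 16), and Cyp46a1, which makes 24-hydroxycholesterol in neurons, rose (0.59, 9 of 16), as the only genes passing of 22 cholesterol genes. Of 22 imprinted genes, the noncoding RNA H19 fell (-0.59, 15 of 16) and Dlk1, which lies at another imprinted locus, rose (0.65, 10 of 16).

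Predicted genes of low level had the largest fold changes. Gm2792, an unprocessed pseudogene on chromosome 17, was at 0, 0.264, 0.194 and 0.234 CPM in WT and 8.38, 6.89 and 2.53 CPM in KO libraries (log2 fold change 5.01 with SE 0.57, edgeR adjusted p = 0.00178). Gm49693, a processed pseudogene within its span, moved with it (4.34, 15 of 16 settings). In the CD45 libraries the log2 fold change of Gm2792 was -0.10. Both were singled out after their values were seen. Gm9347 was at 2.67, 2.46, 1.85 and 2.93 CPM in WT and 0.370, 0.106 and 0.0732 CPM in KO libraries (-3.76, 15 of 16 settings), and Gm9008 fell by 3.46 on the log2 scale with KO replicate 2 at 0 (7 of 16). These fitted folds rest on few counts, and reads of pseudogenes may be shared with near-identical copies, so their values are uncertain. Abhd1 fell by 0.68 in all 16 settings, and 89.6% of its exon sequence overlaps Preb on the opposite strand. Exons of 71 of the 235 higher and 9 of the 25 lower genes overlap those of another gene, beside 5925 of all 16546 genes tested. Without a known strand setting, reads of overlapping exons cannot be told apart. Among the genes named, the overlap was at least 10% for Grin1 (13.5%), Nrn1 (22.3%), Syn3 (14.1%), Gm2792 (12.2%), Gm9008 (21.9%) and Angpt1 (14.2%).

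Vessel and barrier genes gave 0 calls. Of all genes 1.57% were called, so 0 calls in lists of 15 to 21 genes is near that share. Of 21 endothelial genes tested 16 were negative (median -0.19), and their sum was 658 to 827 CPM in WT and 686 to 869 CPM in KO libraries, so the genotypes overlapped. Most of that sum came from Bsg and Slc2a1, which other brain cells also express. Tek, the Tie2 receptor, was at 1.00, 1.495, 1.94 and 1.01 CPM in WT and 0.833, 0.583 and 1.17 CPM in KO libraries, which is too little for a firm value (log2 fold change -0.62 with SE 0.34, edgeR adjusted p = 0.559). Akap12, which anchors protein kinase A, was at 201, 208, 201 and 244 CPM in WT and 193, 252 and 226 CPM in KO libraries, with overlap (0.07, SE 0.11, edgeR adjusted p = 0.871). Angpt1, a Tie2 ligand, was at 6.30, 6.20, 5.59 and 6.32 CPM in WT and 5.79, 5.88 and 3.33 CPM in KO libraries. Its groups overlapped (-0.30, edgeR adjusted p = 0.645). Pericyte and smooth muscle genes had 0 of 15 passing (median -0.13), and junction and barrier genes 0 of 16 (median 0.00).

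Markers of other cells were set beside the neuronal genes. The monocyte and macrophage sum was 32.1 to 50.6 CPM in WT and 28.3 to 29.7 CPM in KO libraries, and the red cell sum 10800 to 29600 CPM in WT and 10700 to 14000 CPM in KO libraries. Homeostatic microglia genes summed to 156 to 167 CPM in WT and 147 to 174 CPM in KO libraries, with Ptprc at 0.66 to 1.22 CPM. Sall1 gave 78.0 to 94.7 CPM of that sum. Before TMM scaling its mean was 86.6 CPM in flow-through WT and 38.9 CPM in CD45 WT libraries, so the sum is no clean measure of microglia. Choroid plexus genes were all positive (12 of 12, median 0.61) with 0 passing, and their sum was highest in KO replicate 1. Among them Ttr (transthyretin) was at 71.1, 689, 504 and 99.6 CPM in WT and 1760, 59.2 and 75.9 CPM in KO libraries. Their part in the differences between genotypes was not tested.

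The same genes were read in the CD45 libraries, 3 WT and 4 KO, which come from the same kind of tissue and may share animals with the flow-through. Of the 235 higher genes, 218 could be tested there. Of all 235, 204 were lower in CD45 than in flow-through WT libraries, beside 9299 of all 16546 genes tested. The CD45 fit called 0 of 15660 genes (0.0%), with 693 (4.43%) at an unadjusted p under 0.05. Among the 218 genes 179 had a positive log2 fold change in the CD45 fraction, with a median of 0.45, whereas 55.7% of all genes tested in both were positive, with a median of 0.02. Of these genes 28 had an unadjusted p under 0.05 there. Of the 21 lower genes measured there 14 were negative (median -0.18). Values of single members had wide errors in the CD45 fraction. Kif5a had a log2 fold change of -0.14 (SE 0.68) there and 0.91 (SE 0.11) in the flow-through. For Egr4 the values were 1.56 (SE 0.69) and 1.69 (SE 0.24). The genotype by fraction interaction in edgeR called 0 of 18098 genes (0.0%), with 1305 (7.21%) at an unadjusted p under 0.05 and 0 with another scaling (RLE), so no gene was shown to differ between genotypes in the flow-through more than in the CD45 fraction.

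The genes that rose shared sequence features that the test did not use. Their median transcript GC content was 56.9% against 49.6% for all genes tested and 45.5% for the genes that fell, and their median exon length was 4646 bases against 4154. With the GC and length trend of each library removed, 129 of the 235 higher and 20 of the 25 lower genes still passed, and 234 of the 235 kept their sign. The median log2 fold change was then 0.70 for the higher genes, beside 0.82 before, and -0.66 for the lower genes, beside -0.64. KO replicate 3, the library with the highest mean GC content, had the lowest KO value for 141 of the 235 higher genes and the highest for 39. KO replicate 1 had the highest for 139. Without KO replicate 3 the test called 195 genes higher. A promoter of 300 bases was found in RefSeq for 166 higher, 10 lower and 11924 tested genes. Median promoter GC content was 66.3% for the higher, 54.8% for the lower and 60.7% for all tested genes. The GC box GGGCGG, searched on both strands, was in 71.1% of the higher promoters and 63.0% of all, and the EGR site GCGGGGGCG, which can overlap a GC box by some of its letters, in 10.8% and 5.54%. The TGACG core was in 24.7% of the higher promoters and 30.3% of all, and the whole element TGACGTCA in 3.01% and 3.14%. A match describes the letters of the window and does not show binding.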

How the data were processed

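Poly(A) RNA of 15 cortical cell libraries was sequenced after a stranded mRNA kit with 14 PCR cycles, per the labels' protocols. The authors deposited gene counts, whole numbers of reads per gene without normalization, in 1 table per fraction. Per the submitters' processing notes, the tools were Trim Galore, FastQC, STAR 2.7.9a and DESeq2, and the build was GRCm38. How reads were counted, with which strand setting and annotation, was not given in the sources used here.

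Each table lists 33223 genes, of which 33130 matched GENCODE M21. Genes kept by filterByExpr (at least 10 counts in enough libraries, 15 in total) were tested with edgeR 4.0.16 in R 4.3.3 by the robust quasi-likelihood test with TMM scaling, with Benjamini-Hochberg adjustment over all genes and a threshold of 0.05. The script was tested on simulated data. The interaction used 14 libraries with 1 mean per group. Chi-square per degree of freedom was 10.2 to 32.9 for pairs of libraries within a group, so no library was taken for a duplicate. Replicate numbers follow accession order and pair nothing. Since no label names animals, the p-values reflect only how these libraries vary, and part of that may be technical. Counting error is small at these depths except for genes of a few CPM or less.

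A few genes are not reported here. The members and the 58 gene lists were chosen with earlier results of these data known. Named genes were all lower genes, the 24 higher genes with the smallest p and a mean log2 CPM of at least 1 that are no predicted models, the 8 passing genes of highest level, up to 4 passing members of each list (or the 2 of highest level where none passed), and a panel of 7 genes (Epha4, Tek, Akap12, Angpt1, Cldn5, Pecam1 and Ptprc). Alternatives were RLE, upper quartile or total-count scaling, no filter or a mean count of at least 50, no robust estimation, limma-voom (3.58.1), DESeq2 (1.42.0, with its own scaling and independent filtering on all 33223 genes), removal of the GC and length trend by splines, each library left out, the CD45-table library entered as labelled, and a joint fit with the CD45 libraries (18098 genes tested). Apart from DESeq2 and the joint fit, each changed 1 choice.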

Additional observations from a re-analysis of the deposited data

Results flagged for a closer look

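Among the 4 WT libraries, 1 value stood far from the other 3 for 7 of the genes named. These were Shisa6, lowest in WT replicate 2 at 40.7 CPM, Rims1, highest in WT replicate 1 at 61.0 CPM, and Chrm3, lowest in WT replicate 3 at 0.923 CPM. Akap12 and Adcy1 were highest in WT replicate 4, at 244 CPM and 50.1 CPM. Rpsa, a ribosomal protein gene, was highest in WT replicate 1 at 1420 CPM, and Angpt1 was lowest in WT replicate 3 at 5.59 CPM. Chance flags about 1 in 20 groups, and 155 genes were looked at. For Rims1 the WT range was narrow, so the distance is small in CPM.

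The library labelled flow-through WT replicate 5, which no comparison used, held Ptprc at 906 CPM before TMM scaling, against 0.854 to 1.22 CPM in the other WT libraries of that label.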

How the results depend on the processing

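The main test called 260 genes, 235 higher and 25 lower. Without the filter on low counts it called 629, 492 higher and 137 lower, and all 260 were among them. DESeq2, run on the table without that filter, called 416, of which 66 were lower, and 258 were shared. With the GC and length trend removed, 148 were higher and 39 lower. With the CD45-table library entered as labelled, 0 genes were called in all, 0 higher and 0 lower. The joint fit of 14 libraries called 30, 26 higher and 4 lower. Leaving out each library in turn gave 134 to 287 genes, 117 to 253 higher and 13 to 34 lower. The lowest total came without KO replicate 1, which left 128 of the 260. Why the counts moved was not tested. With RLE, upper quartile or total-count scaling, a mean count of at least 50, no robust estimation or limma-voom, the totals were 227 to 259.

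Of the 260 genes, 88 passed in all 16 alternatives other than the joint fit and the fit with the library as labelled. Among the named genes signs reversed only in the latter, for Egr3 (-0.0225), Chrm3 (-1.22) and Camkk1 (-0.20). Of 2777 values of named genes under alternatives, 2363 kept their direction and side of the threshold and 405 lost the call. The main test called 98 of the 155 named genes, so the total also holds values of genes with no call to lose. Of the 98, 48 passed in all of those 16 alternatives. No paired analysis was possible because the replicate numbers follow accession order and the labels give none.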

Other observations

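Other groups of the flow-through gave few or 0 calls. Of 29 nuclear genes of oxidative phosphorylation 2 rose, both subunits of cytochrome c oxidase: Cox8a, at 173, 189, 140 and 147 CPM in WT and 254, 240 and 264 CPM in KO libraries (log2 fold change 0.64, edgeR adjusted p = 0.00781), and Cox6a1 (0.51, past the threshold in 11 of 16 settings). The 11 mitochondrially encoded genes tested had 0 passing and a median of 0.08, and 26 of the 29 nuclear genes were positive. Heparan sulfate enzymes had 1 of 18 passing, Hs3st2, a sulfotransferase of neurons. Eph receptors and ephrins had 1 of 21 passing, Ephb6, a kinase-dead receptor, at 14.1, 12.7, 10.2 and 11.8 CPM in WT and 21.0, 17.4 and 21.1 CPM in KO libraries (0.70, 14 of 16 settings).

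Cell cycle genes had 0 of 24 passing with 20 negative (median -0.11), and heat shock genes 0 of 16 with 12 negative (median -0.10). The RNA quality lists had 0 of 11 nuclear retained RNAs (median 0.01) and 0 of 9 replication-dependent histone genes (median -0.07) passing. Vipr1, a receptor for vasoactive intestinal peptide, was at 1.62, 1.32, 1.99 and 1.79 CPM in WT and 5.28, 4.19 and 5.12 CPM in KO libraries (1.53, in all 16 settings). Its gene lies 147 kb from that of the peptide Cck on chromosome 9, which also rose. The pair is 1 of 29 pairs of neighbouring called genes within 200 kb, of which 28 rose together and 1 fell together. Whether such pairs are more frequent than among all genes was not tested.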
